A study of Mus musculus with 27 samples.

Results

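Outer root sheath (ORS) cells of mouse back skin late in anagen, the growth phase of the hair cycle, were described gene by gene in 2 wild-type mice at postnatal day 32 (AnaVI). Cells were chosen by UMIs, the barcoded transcripts that are counted in each cell of a 10x Genomics single cell RNA-sequencing library. A cell entered when at least 500 genes and 1000 UMIs were detected, mitochondrial transcripts made up less than 10% of them, and it had Krt5 and Krt14 together at 0.2% or more of its UMIs and 2 or more UMIs of Tbx1, Barx2, Edn2 and Scrg1. Cells with Krt1 and Krt10 at 0.1% of UMIs or more, with over 1 UMI of Krt24, Shisa2 and Gdf10, or with 5 or more UMIs of Krt75 were left out. The rule took 1171 of 28373 cells, which were 621 of 14458 (4.30%) in mouse 1 and 550 of 13915 (3.95%) in mouse 2. The skin had been depleted by sorting of immune, endothelial, melanocytic and PDGFRA+ cells before the libraries were made, so the shares of cells are shares after that sort, after which many collagen-expressing cells were still present. The series also holds RNA-seq of hair follicle stem cell (HFSC) cultures from postnatal day 55 skin, in which the genes found here were followed as a second readout. Those were wild-type cultures and Rxra cKO cultures (Sox9-CreER, Rxra fl/fl, R26-YFP), with 2 mice per genotype, grown either in serum (FBS) or in serum-free B-27 medium with all-trans retinoic acid and an inhibitor of protein kinase C (atRA+PKCi). The Cre is driven by Sox9, and the culture lines had been established on feeder cells.

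The ORS is the outermost epithelial layer of the hair follicle. It is continuous with the basal layer of the epidermis above, surrounds the inner root sheath and reaches down to the bulb, and its resting part, the bulge, holds HFSCs. In anagen the layer grows downward, and cells of it outlive the growth phase to form the next bulge. Its cells carry the basal keratins Krt5 and Krt14, the stem cell transcription factors SOX9, LHX2 and TCF7L1, and, in the lower follicle, the R-spondin receptor LGR5. Retinoic acid acts through RAR and RXR, a pair of nuclear receptors, and RXR is also the partner of the vitamin D receptor VDR, without which hair cycling fails.

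The libraries held 16521 and 16068 barcodes, and ORS cells had medians of 7257 and 9739.5 UMIs in mice 1 and 2, with sums of 4906135 and 5783061 UMIs. The mice shared 62 barcodes, of which 0 were ORS cells in both. Scrublet, which scores each cell by its likeness to simulated doublets, called 35 of the ORS cells of mouse 1 and 0 of mouse 2. In mouse 2 it called no cell at all, so the cells with the highest 6% of scores were left out as another check. Levels below are UMIs per 1000000 UMIs (CPM) of the summed cells of a mouse, given for mouse 1 and then mouse 2, and are not corrected for gene length. Fold changes are log2 values with their standard error (SE) from edgeR's quasi-likelihood test on these sums, with Benjamini-Hochberg adjusted p-values, and a gene was called where that p was below 0.01 and the log2 fold change exceeded 1 in size. The mouse is the replicate (n = 2). Every population was defined by UMIs of other genes in the same libraries. A call thus says only that the difference between populations so defined was large against the spread that edgeR estimated over all sums of a fit. That estimate is moderated over genes, and the main fit left out the pairing of the sums of a mouse.

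The genes of the rule set the population and are given as a description. Krt5 was at 2680 and 2326 CPM and Krt14 at 3410 and 3065 CPM. Barx2, a homeobox transcription factor, was at 491 and 509 CPM and gave 59.0% and 56.8% of the UMIs of the 4 genes. Tbx1, a T-box factor of HFSCs, was at 204 and 193 CPM and gave 24.6% and 21.6%. Edn2, which encodes the ligand endothelin-2, was at 62.0 and 69.3 CPM, and Scrg1 at 75.2 and 124 CPM. On GRCm38 the genes span chr9:31846044-31913462 (Barx2), chr16:18580979-18590671 (Tbx1), chr4:120161206-120167360 (Edn2) and chr8:57455923-57477585 (Scrg1). Cells had a median of 6 and 8 UMIs of the 4 genes together, with a range of 2 to 26 in mouse 1 and of 2 to 36 in mouse 2. All 4 genes were detected in 29 and 73 cells, and only 1 of them in 217 and 159 cells.

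Of the markers that the rule did not use, Vdr was at 287 and 299 CPM in ORS cells, against 108 and 66.1 CPM in other basal cells, the 148 and 101 cells that met every criterion of the rule except that they had 0 UMIs of the 4 genes. Krt15, a keratin of the bulge, was at 2150 and 1600 CPM in ORS cells and at 2922 and 3497 CPM in other basal cells. ORS cells were thus below other basal cells for Krt15 in both mice, but the difference did not pass the test (log2 fold change -0.71, SE 0.23, adjusted p = 0.0776, edgeR). Krt15 varied widely among ORS cells, with a median of 10.3 and 8.51 UMIs per 10000, a 90th percentile of 59.7 and 42.9, and 0 UMIs in 19.5% and 16.4% of the cells. Tbx1, Barx2, Edn2 and the basal keratins were present by the rule, so their levels are no support for the label. Of the markers outside the rule, Vdr was higher than in other basal cells in both mice. Krt15 did not separate these cells from their basal neighbors.

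**Figure D1:**
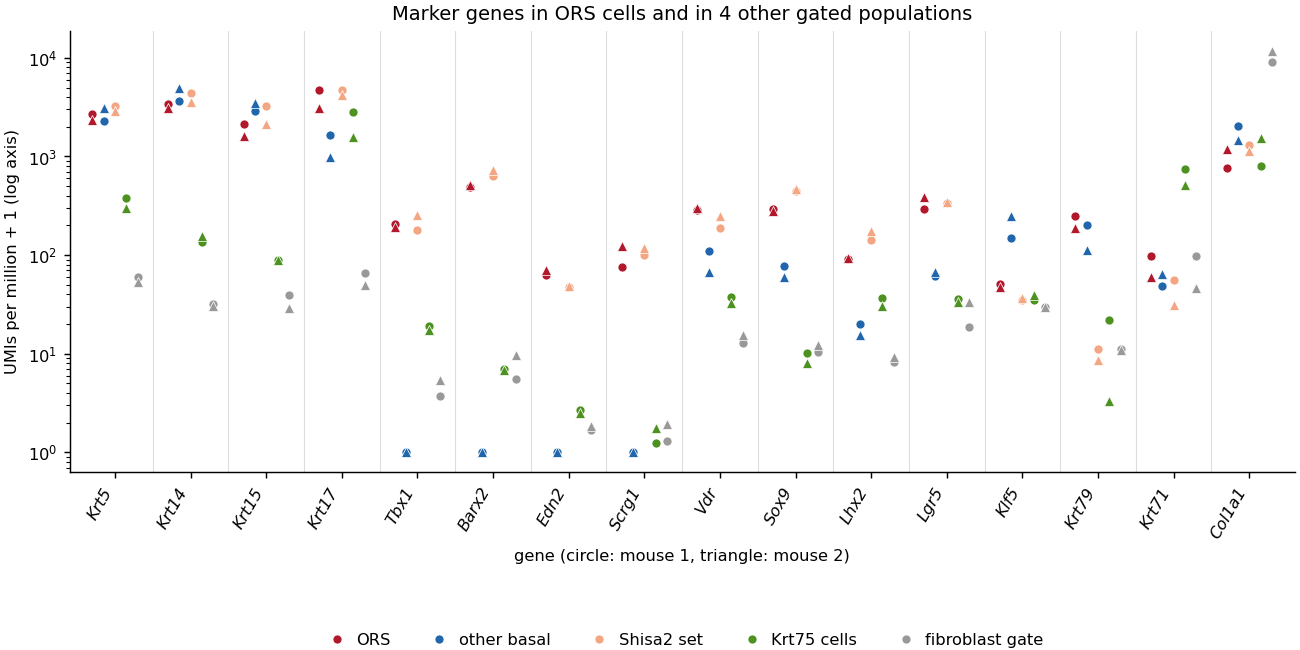
Marker genes in ORS cells, other basal cells, the Shisa2 set, Krt75 cells and the fibroblast gate, in CPM plus 1 on a log axis, with a circle for mouse 1 and a triangle for mouse 2. Tbx1, Barx2, Edn2 and Scrg1 are at 0 in other basal cells by definition, Krt15 is lower in ORS cells than in other basal cells in both mice, and Sox9, Lhx2, Lgr5 and Vdr are higher.

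Cells that entered by Barx2 alone, with no UMI of Tbx1, Edn2 or Scrg1, stood apart from the rest. There were 182 and 133 of them, with medians of 6751 and 9924 UMIs against 7416 and 9692 in the other 439 and 417. Lgr5 was at 73.8 and 67.0 CPM in them and at 374 and 490 CPM in the rest, and Sfrp1, a secreted Wnt inhibitor, at 169 and 109 against 562 and 778 CPM. Krt79, a keratin of the infundibulum and of the duct of the sebaceous gland, was at 761 and 717 CPM against 45.1 and 9.03 CPM. Krt6a, a keratin of the companion layer and of stressed epidermis, was at 255 and 160 against 56.2 and 49.5 CPM, and Klf5, an epidermal transcription factor, at 92.6 and 132 against 32.6 and 17.4 CPM. Sox9 was close in both, at 377 and 293 against 256 and 273 CPM. Vdr was lower in cells that entered by Barx2 alone, at 137 and 149 against 347 and 350 CPM. Lhx2 was lower in them too, at 60.8 and 32.1 against 101 and 112 CPM, and Krt15 was higher, at 2581 and 2558 against 1981 and 1276 CPM. Entry by Barx2 alone thus took in cells with much Krt79 and little Lgr5, and counts that they move are given below with and without them. After each cell was thinned to 3000 UMIs, which left out 24 and 17 ORS cells with fewer, Krt79 had a UMI in 28.7% and 33.9% of cells that entered by Barx2 alone and in 3.99% and 2.46% of the rest.

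At the threshold of 2 UMIs, the 86 and 40 cells with exactly 2 UMIs of the 4 genes had Sox9 at 247 and 222 CPM, Lgr5 at 210 and 317 CPM and Klf5 at 94.5 and 76.0 CPM. The 92 and 50 cells just outside it, with 1 UMI, had Sox9 at 99.1 and 75.8 CPM, Lgr5 at 189 and 114 CPM and Klf5 at 155 and 268 CPM.

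Markers of other cell types were detected, and the source of this RNA was not tested. The 6 fibroblast markers summed to 3491 and 5120 CPM in ORS cells, led by Col3a1 at 1239 and 1788 CPM, against 44057 and 53811 CPM in the 6710 and 7418 cells of a fibroblast gate (collagens Col1a1, Col1a2 and Col3a1 at 0.5% of UMIs or more with little Krt5 and Krt14). The 4 melanocyte markers summed to 45.9 and 225 CPM, the 6 immune markers to 30.8 and 61.2 CPM, the 4 Schwann cell markers to 15.1 and 16.1 CPM, the 4 endothelial markers to 2.85 and 3.29 CPM, and the 4 Merkel cell markers to 0.815 and 0.865 CPM with Atoh1 and Sox2 at 0. The 6 sebaceous markers summed to 377 and 400 CPM, led by Mgst1, and lay at 613 and 632 CPM in the fibroblast gate. The 4 mural and muscle markers reached 824 and 603 CPM against 164 and 190 CPM in the fibroblast gate, led by Tagln, which encodes transgelin, at 440 and 362 CPM. The 12 hair shaft and matrix markers summed to 183 and 210 CPM, led by Hoxc13, against 168 and 140 CPM in the fibroblast gate. Of these 12, 8 lay under 10 CPM in each mouse in both populations. The 8 inner root sheath markers summed to 341 and 266 CPM against 303 and 182 CPM. The 8 suprabasal markers summed to 709 and 556 CPM against 164 and 66.4 CPM. The 4 companion layer markers outside the rule summed to 4794 and 3197 CPM, led by Krt17, against 67.3 and 50.8 CPM.

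Detection in single cells was read at a fixed depth against the fibroblast gate, a distant population, and not against other basal cells. After thinning to 3000 UMIs, Vdr had a UMI in 49.1% of ORS cells of mouse 1 (exact Clopper-Pearson 95% interval 45.0 to 53.2) and 48.4% of mouse 2 (44.1 to 52.7), against 3.25% and 4.28% in the fibroblast gate. Lgr5 had a UMI in 43.9% (39.9 to 48.0) and 51.8% (47.4 to 56.1) of ORS cells, against 3.86% and 6.62%. Sox9 had a UMI in 46.2% (42.2 to 50.3) and 49.5% (45.2 to 53.9), against 2.50% and 3.20%. Unthinned, the shares were 69.6% and 77.6% for Vdr, 57.8% and 65.8% for Lgr5, and 69.1% and 75.6% for Sox9, at median depths of 7257 and 9739.5 UMIs in ORS cells and of 8944 and 11135.5 UMIs in the fibroblast gate. These intervals cover counting error only.

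ORS cells were first set against Krt75 cells, of which there were 343 and 267. They had 5 or more UMIs of Krt75, a keratin of the companion layer that lies just inside the ORS. They also met the limits of the rule on Krt1 and Krt10 and on Krt24, Shisa2 and Gdf10. These cells carried Krt71, an inner root sheath keratin, at 743 and 517 CPM and Lef1, a Wnt effector of the hair matrix, at 463 and 708 CPM, with Krt6a at 3.13 and 2.29 CPM, so they are named by their gate and not as companion layer. Of 11850 genes tested, 1008 (8.51%) were higher and 540 (4.56%) lower in ORS cells.

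Of 16 stem cell transcription factors tested, 9 were called higher and 1 lower, with a median log2 fold change of 1.64 against -0.07 over all genes. Sox9 was at 290 and 278 CPM in ORS cells and at 9.16 and 7.11 CPM in Krt75 cells (log2 fold change 5.11, SE 0.31, adjusted p = 1.27e-12). The mice lay close together in each population, and the populations did not overlap. Tcf7l1, a repressor of Wnt target genes, rose from 53.2 and 54.3 to 193 and 252 CPM (2.05, SE 0.23), Nfib, a stem cell chromatin factor, from 316 and 417 to 1328 and 1708 CPM (2.05, SE 0.30), and Lhx2 from 35.9 and 29.7 to 89.9 and 91.8 CPM (1.47, SE 0.24). Foxc1 and Nfatc1, factors of quiescent HFSCs, were low in ORS cells, at 18.3 and 13.8 CPM and at 12.2 and 8.82 CPM, and were called higher than in Krt75 cells. Without the cells that entered by Barx2 alone, and without replicate 1 of ORS cells or either replicate of Krt75 cells, Nfatc1 lost its call.

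Of 11 surface and niche genes tested, 7 were called higher. Lgr5 was at 289 and 383 CPM against 34.9 and 32.5 CPM (log2 fold change 3.31, SE 0.26), and Lrig1, a brake on EGF receptor signaling, at 245 and 261 against 29.2 and 31.7 CPM (3.05, SE 0.23). Dkk3, a secreted Wnt modulator, was at 41.0 and 50.5 against 4.10 and 4.83 CPM (3.35, SE 0.29). Cd34, a surface marker of bulge HFSCs, was at 94.2 and 87.5 CPM against 63.4 and 53.1 CPM and was not called (0.64, SE 0.22, adjusted p = 0.0341). Of 11 keratins outside the rule, 7 were called higher and none lower, among them Krt15 (4.41, SE 0.37) and Krt6a (5.10, SE 0.32). Krt79 was also among them (4.20, SE 0.73), but not without the cells that entered by Barx2 alone. Krt17, at 4677 and 3115 against 2837 and 1592 CPM, was not called (0.81, SE 0.56, adjusted p = 0.345). Of 14 genes of basement membrane adhesion, 5 were called higher, with Col17a1, a hemidesmosomal collagen, at 266 and 345 against 39.8 and 42.9 CPM (2.88, SE 0.25).

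Kcnb2, a potassium channel, was at 126 and 211 CPM in ORS cells against 2.89 and 6.10 CPM (log2 fold change 5.22, SE 0.32), and Adh7, an alcohol dehydrogenase that can oxidize retinol, at 58.7 and 64.0 against 1.93 and 1.27 CPM (5.21, SE 0.33). Sostdc1, a secreted inhibitor of Wnt and BMP signals, was at 220 and 197 against 7.71 and 3.56 CPM (5.19, SE 0.39). Trichohyalin (Tchh), a protein of inner root sheath granules, was at 16.3 and 12.8 against 1660 and 1677 CPM (-6.84, SE 0.38), and Csta1, a protease inhibitor, at 3.67 and 3.11 against 288 and 336 CPM (-6.51, SE 0.32). Krtap15, Tchhl1 and Sptssb were at or under 1 CPM in ORS cells and between 43.2 and 166 CPM in Krt75 cells. Of 8 inner root sheath markers, 7 were tested and 5 were called lower.

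The Wnt pathway was split. Of 24 genes tested, 4 were higher and 11 lower in ORS cells. The secreted inhibitor Sfrp1 rose from 38.3 and 35.8 to 451 and 609 CPM (log2 fold change 3.83, SE 0.31). Axin2, a target gene of the pathway, fell from 40.5 and 43.9 to 7.75 and 11.1 CPM (-2.15, SE 0.27), and Lef1 to 54.8 and 68.3 CPM (-3.24, SE 0.27). Of 21 BMP and TGF-beta genes, 5 were higher and 7 lower, with the ligand Bmp6 at 43.0 and 52.9 against 10.6 and 20.1 CPM (1.65, SE 0.29) and the target gene Id3 at 131 and 77.1 against 650 and 513 CPM (-2.48, SE 0.28).

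Genes of retinoid uptake, metabolism and signaling also went both ways, with 3 of 16 higher and 5 lower. Dhrs9, an enzyme that oxidizes retinol to retinal, was at 186 and 212 CPM against 6.75 and 6.35 CPM (log2 fold change 4.91, SE 0.28, adjusted p = 3.85e-13). Lrat, which esterifies retinol for storage, was at 12.4 and 11.9 against 1.69 and 0.762 CPM (3.25, SE 0.51), and Dhrs3, which reduces retinal, at 67.5 and 73.7 against 26.3 and 33.3 CPM (1.25, SE 0.22). Aldh1a3, which makes retinoic acid from retinal, was at 15.7 and 12.5 CPM against 723 and 974 CPM (-5.91, SE 0.32), and Stra6, the receptor for retinol uptake, at 3.47 and 3.63 against 104 and 88.9 CPM (-4.75, SE 0.28). Rdh10 (-1.72, SE 0.31) and Fabp5 (-1.29, SE 0.33) were lower as well, and both lost their calls without some of the 8 sums in turn. The receptors were not called in this comparison or against other basal cells, with Rxra at 55.4 and 54.99 CPM, Rarg at 63.0 and 71.6 CPM and Rara at 26.1 and 36.3 CPM in ORS cells.

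The Shisa2 set, defined below, and other basal cells each departed from the rule by a single criterion. Both were added after the number of cells in each gate had been seen. Other basal cells differed more from ORS cells, with 4.08% of genes called against 0.184% for the Shisa2 set. They were themselves mixed, with Shh, a ligand of the hair matrix, at 29.6 and 48.2 CPM, Lef1 at 327 and 239 CPM, the 6 fibroblast markers at 8880 and 6469 CPM, and the 4 mural and muscle markers at 1624 and 1454 CPM, and the part of these cells in the differences was not tested. Of 12498 genes tested, 287 (2.30%) were higher and 223 (1.78%) lower in ORS cells, together 4.08%. Without replicate 2 of other basal cells, 80 were higher and 74 lower, and with the replicate block, which pairs the sums of a mouse, 390 and 395.

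Of 16 stem cell transcription factors, 5 were higher and 1 lower, with a median of 0.70 against 0.01 over all genes. Sox9 was at 290 and 278 against 77.0 and 59.4 CPM (log2 fold change 2.11, SE 0.20, adjusted p = 0.00011), Lhx2 at 89.9 and 91.8 against 18.8 and 14.6 CPM (2.49, SE 0.24), and Tcf7l1 at 193 and 252 against 64.5 and 29.1 CPM (2.28, SE 0.28). Vdr (1.80, SE 0.24) and Tcf7l2 (1.03, SE 0.19) were higher too, Vdr not without replicate 2 of other basal cells and Tcf7l2 not without any 1 of the 4 sums. Klf5 was the factor that fell, from 148 and 251 to 49.5 and 46.3 CPM (-1.99, SE 0.23, adjusted p = 0.000324). These factors kept the same direction in both mice, and the ranges of the populations did not overlap.

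Of 11 surface and niche genes, Lgr5 (log2 fold change 2.47, SE 0.20), Slc1a3, a glutamate transporter (2.22, SE 0.33), Dkk3 (1.84, SE 0.32) and Lrig1 (1.67, SE 0.19) were higher. Slc1a3 and Dkk3 lost their calls without replicate 2 of other basal cells, and Lgr5 and Lrig1 kept theirs without each sum in turn. Krt17 and Krt6a, 2 of 10 keratins, were higher, Krt17 at 4677 and 3115 against 1633 and 988 CPM (1.64, SE 0.32) and Krt6a at 112 and 77.5 against 11.6 and 2.24 CPM (3.74, SE 0.51), and both lost their calls without replicate 2 of other basal cells, Krt17 also without replicate 1 of either population. Krt79 was at 247 and 188 against 201 and 111 CPM and was not called (0.53, SE 0.50), and without the cells that entered by Barx2 alone it was lower, at -2.48.

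Of 25 Wnt genes, 8 were lower, namely Wnt3, Wnt4, Wnt5a, Wnt10a, Lef1, Axin2, Fzd10 and Wif1, and the median of the list was -1.48. Wnt4 was at 47.3 and 48.1 CPM against 158 and 230 CPM (log2 fold change -1.96, SE 0.26), and Wnt3 at 2.24 and 8.99 against 39.4 and 68.3 CPM (-3.14, SE 0.44). Of the 8, only Lef1 kept its call without each sum in turn. The 4 higher genes were the co-receptor Lrp6, the receptor Fzd2, and the secreted modulators Sfrp1 and Dkk3, with Sfrp1 at 451 and 609 against 68.1 and 126 CPM (2.52, SE 0.26), and Sfrp1 and Fzd2 kept their calls without each sum. Of 21 BMP and TGF-beta genes, the ligand Bmp6 was higher (2.73, SE 0.35), and the ligands Bmp2 (-3.26, SE 0.32) and Bmp4 (-1.99, SE 0.39), the inhibitor Smad7 (-1.61, SE 0.19) and the TGF-beta target Tgfbi (-1.82, SE 0.31) were lower. In the Hedgehog pathway Shh was lower (-3.43, SE 0.64). Among 22 growth factor genes, Fgfr3 (1.48, SE 0.27) and Pthlh (2.24, SE 0.33) were higher, and Igfbp2 (-2.17, SE 0.41) and Igfbp3 (-1.57, SE 0.20) lower. Dhrs9 (3.70, SE 0.21), Dhrs3 (1.08, SE 0.22) and Lrat were the higher of 18 retinoid genes, Lrat at 12.4 and 11.9 CPM against 1 UMI in mouse 1 and 0 in mouse 2. The adhesion gene Col7a1 (-2.05, SE 0.24) and the AP-1 gene Fosl1 (-3.29, SE 0.28) were lower, and none of the genes of glycolysis (20 tested), DNA replication (12) or G2/M (8) was called. Among the genes of this paragraph from BMP to AP-1, Bmp2, Smad7, Igfbp3, Dhrs9, Col7a1 and Fosl1 kept their calls without each sum in turn, and the others did not.

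Kcnb2 led the genes higher in ORS cells, at 126 and 211 CPM against 2 UMIs and 0 UMIs in the other basal cells of mice 1 and 2. Rnf152, a ubiquitin ligase, was at 55.4 and 96.7 against 4.48 and 2.24 CPM (log2 fold change 4.49, SE 0.48), and Atp8a2, a lipid flippase, at 62.6 and 62.8 against 5.37 and 1.12 CPM (4.22, SE 0.36). Myh11 and Cnn1, genes of smooth muscle contraction, led the lower genes, Myh11 at 2.24 and 2.59 against 142 and 109 CPM (-5.61, SE 0.30) and Cnn1 at 5.10 and 2.08 against 95.8 and 79.5 CPM (-4.57, SE 0.39). Il17b, Ndufa4l2 and Chit1 followed, between -4.46 and -3.42.

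**Figure D2:**
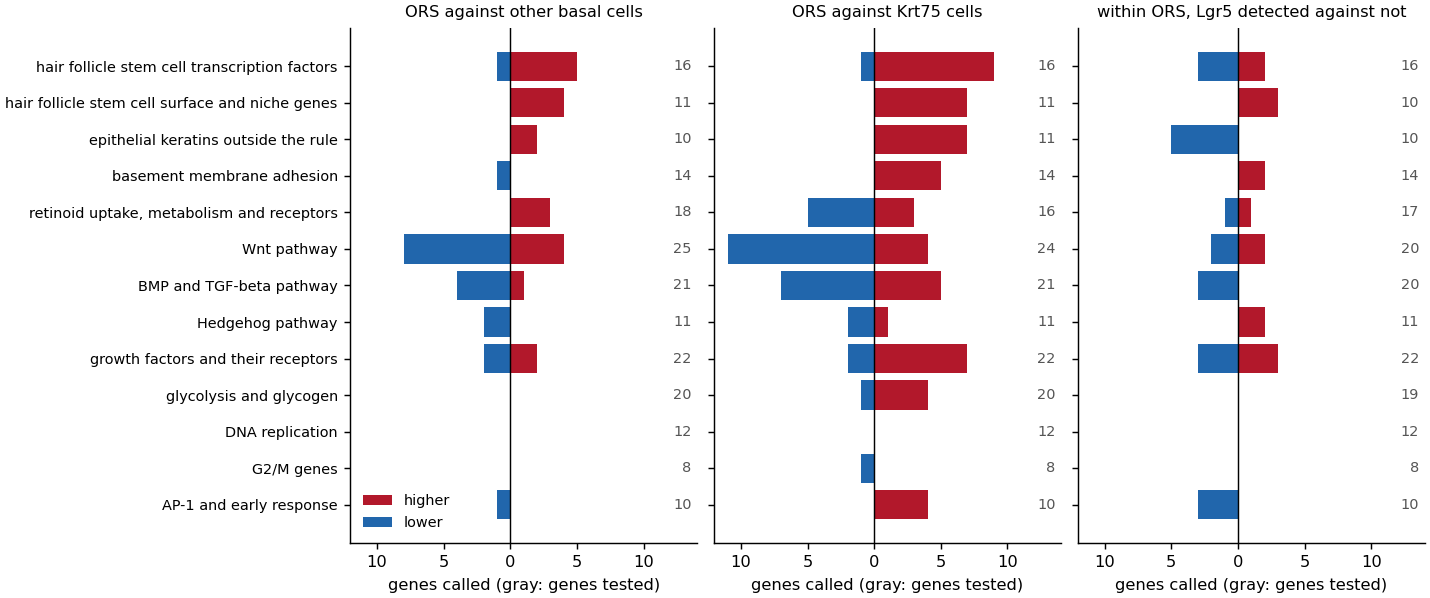
Number of genes called higher (red, right) and lower (blue, left) in each list, against other basal cells, against Krt75 cells, and in ORS cells with against those without an Lgr5 UMI, with the number tested in gray. Of 16 stem cell transcription factors, 5 and 9 are higher and 1 is lower in ORS cells in the population comparisons, and of the Wnt genes 8 of 25 and 11 of 24 are lower and 4 higher in each. Within ORS cells, 5 of 10 keratins and 3 of 10 AP-1 genes are lower with Lgr5, and most members of most lists were not called.

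The Shisa2 set met the other criteria of the rule but had 2 or more UMIs of Krt24, Shisa2 and Gdf10, genes of the upper follicle and bulge, and held 164 and 161 cells. It was very close to ORS cells. Of 12498 genes, 12 (0.0960%) were higher and 11 (0.0880%) lower in ORS cells, and with the replicate block 30 and 32. Without the cells that entered by Barx2 alone, 0 genes were higher at this threshold by edgeR. None of the 16 stem cell transcription factors was called, Sox9 lying at 290 and 278 against 443 and 469 CPM (log2 fold change -0.66, SE 0.18, adjusted p = 0.265). Lgr5 was at 289 and 383 against 334 and 347 CPM, within the spread between mice. Genes higher in ORS cells included Ly6d at 349 and 271 against 39.8 and 30.9 CPM (3.16, SE 0.38), the suprabasal markers Calm4 and Klk7 (2 of 8 tested), the keratin Krt77 (1 of 10), Clca3a2 (4.11, SE 0.31) and the aryl hydrocarbon receptor Ahr (2.80, SE 0.22). Krt79, at 247 and 188 against 10.3 and 7.73 CPM, missed the threshold (4.62, SE 0.68, adjusted p = 0.0117) and passed it with the replicate block. Genes lower in ORS cells included Adarb2, an RNA-editing family member, at 6.32 and 8.65 against 68.0 and 77.9 CPM (-3.25, SE 0.23), Hmcn1, a matrix protein, at 138 and 171 against 445 and 554 CPM (-1.68, SE 0.18), and Npnt and Col7a1, both of the basement membrane. Of these genes, Clca3a2, Ahr and Adarb2 kept their calls without each sum in turn, and the others lost theirs without at least 1.

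The 19 and 20 suprabasal cells had Krt1 and Krt10 at 1% or more of their UMIs. Their gate also asked for under 5 UMIs of Krt75 and at most 1 UMI of Tbx1, Barx2, Edn2 and Scrg1 together. Against them, 459 genes (3.87%) were higher and 521 (4.4%) lower in ORS cells, together 8.27% of genes. The lower genes included genes of epidermal differentiation, with Krtdap at 11.4 and 14.5 against 6055 and 5616 CPM (log2 fold change -8.92, SE 0.66), Calm4 at 67.7 and 46.0 against 3190 and 2734 CPM (-5.82, SE 0.42) and Dmkn at 139 and 130 against 2771 and 3253 CPM (-4.60, SE 0.35). Of 8 suprabasal markers tested, 5 were lower. Klf5 fell from 389 and 398 to 49.5 and 46.3 CPM (-3.15, SE 0.25). Of 16 stem cell transcription factors, 9 were higher, with Sox9 at 290 and 278 against 17.7 and 0 CPM, and of 8 G2/M genes, 7 were higher, among them Top2a at 175 and 207 against 29.5 and 49.2 CPM (2.12, SE 0.41). Bnc1, a factor of basal keratinocytes, was at 75.2 and 82.1 CPM in ORS cells and at 0 UMIs in both suprabasal sums, as were Gnmt, Cdc42ep3, Rgs2 and Apobec1. Gadl1 and Serpinb3b were at 0 in both ORS sums, and Krt78 and Pla2g4f at or under 1 CPM. Top2a lost its call without either suprabasal replicate.

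The gate for upper follicle cells asked for 2 or more UMIs of Krt24, Shisa2 and Gdf10. It allowed at most 1 UMI of Tbx1, Barx2, Edn2 and Scrg1 together, and its keratin limits were those of the rule. Upper cells with more UMIs of these 4 genes were thus left out of it. The gate held only 3 and 9 cells, which limits this comparison. Of 11850 genes, 44 (0.371%) were higher and 42 (0.354%) lower in ORS cells, and with the replicate block 114 and 119. Without replicate 2 of upper follicle cells, 1 was higher and 9 lower. Slc7a8, an amino acid transporter, was at 494 and 492 CPM against 76.8 and 0 CPM, and Rasa1, a RAS inhibitor, at 163 and 172 against 0 and 15.1 CPM, levels that rest on 0 to 2 UMIs in the upper follicle sums. Sox9 was at 290 and 278 against 307 and 106 CPM and was not called (1.10, SE 0.43, adjusted p = 0.253). Bdnf and Cstdc5, at or under 1 CPM in ORS cells, and Corin and Kcnq3, the latter at 5.71 and 6.74 CPM, were lower. Corin had 768 CPM in mouse 1 and 15.1 CPM in mouse 2 of the gate, and its log2 fold change went from -4.20 to 7.23 without the cells with the highest Scrublet scores.

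Genes higher in ORS cells than in Krt75, suprabasal and upper follicle cells numbered 32 (0.270%), and those lower than in all 3 numbered 2 (0.0169%). The 15 with the largest value of their smallest log2 fold change were Dhrs9, Kalrn, Cmah, Chn2, Fhod3, Ntn4, Kcnk2, Adgrl3, Id4, Lrig1, Lgr5, Vdr, Insig2, Flrt3 and Gclc. They encode a retinol dehydrogenase, an exchange factor for small GTPases (Kalrn), an enzyme that modifies sialic acid (Cmah), a GTPase-activating protein for Rac (Chn2), a formin (Fhod3), a netrin (Ntn4), a potassium channel (Kcnk2), an adhesion receptor (Adgrl3), an inhibitor of bHLH factors (Id4), the regulators Lrig1, Lgr5 and Vdr, a sterol sensor (Insig2), a cell adhesion protein (Flrt3) and the enzyme that starts glutathione synthesis (Gclc). Fhod3 was the most abundant of them by UMIs, at 627 and 842 CPM in ORS cells, 116 and 101 CPM in other basal cells, 86.5 and 79.2 CPM in Krt75 cells and 5.90 and 53.7 CPM in suprabasal cells. Cmah was at 562 and 632 CPM against 107 and 58.3, 33.3 and 34.5, and 11.8 and 40.3 CPM. All 15 were also higher than in other basal cells, a comparison that their choice did not use but that shares the ORS sums, with log2 fold changes from 1.67 for Lrig1 to 3.70 for Dhrs9. In the Shisa2 set the same genes lay at like levels, with Dhrs9 at 209 and 243 CPM, Fhod3 at 453 and 661 CPM and Cmah at 570 and 739 CPM, and none of the 15 was among those called. The calls against upper follicle cells rested on replicate 2 of that gate, since all 15 lost them without it. The gene lower in all 3 comparisons with no overlap between mice was Mt1, a metallothionein, at 307 and 341 CPM in ORS cells and between 843 and 1482 CPM in the others, which lost its call in each comparison without some of the sums.

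**Figure D3:**
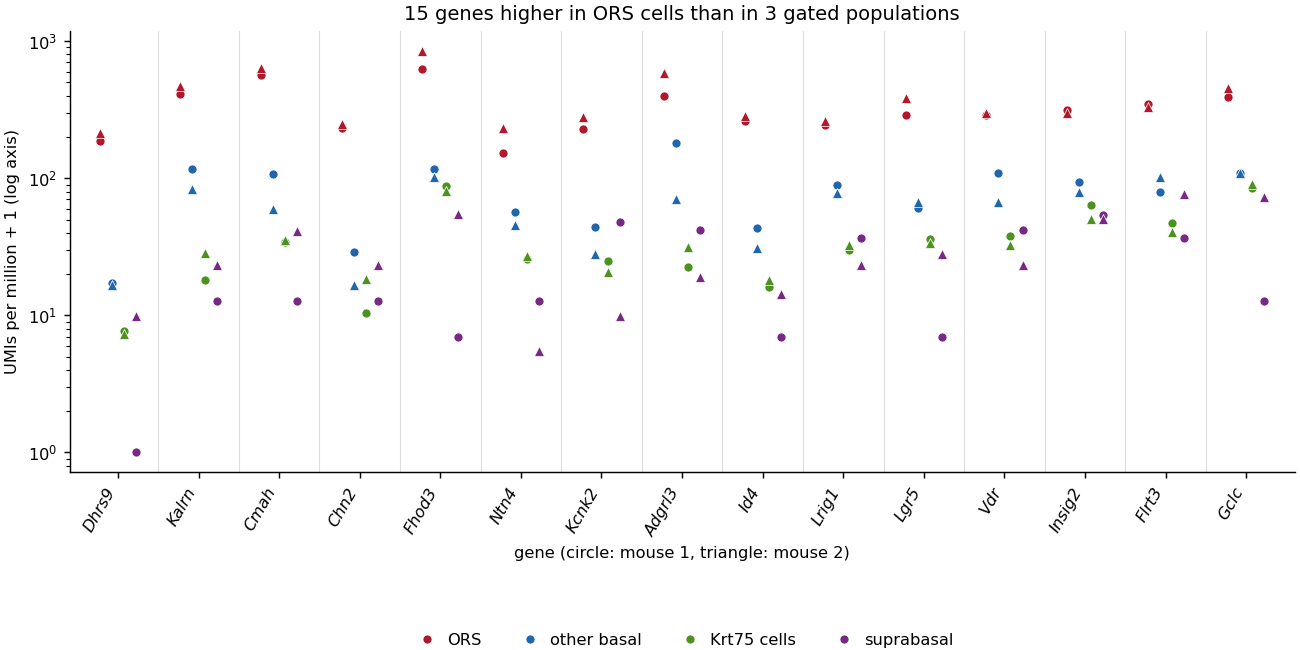
The 15 genes higher in ORS cells than in 3 gated populations, in CPM plus 1 on a log axis, with a circle for mouse 1 and a triangle for mouse 2; upper follicle cells, of which there were 3 and 9, are not drawn. Both ORS sums lie above all sums of other basal, Krt75 and suprabasal cells for every gene drawn.

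Promoter sequences, 250 bases before to 50 after a RefSeq start (GRCm38.p6), were taken for 12 of the 15 genes and searched on both strands. Each gene was searched at 1 start only. The nuclear receptor core motif AGGTCA, which RAR, RXR and VDR share, was in 2 of them (Dhrs9 and Ntn4) and in 16.0% of 27025 promoters of 300 bases. The SOX motif ACAATG was in 1 (Ntn4) against 12.8%, the TCF/LEF motif CTTTGA in 3 (Cmah, Id4 and Kcnk2) against 16.2%, and TAATTA, a homeodomain core, in 0 against 5.31%. The 3 sequences below are shown because 2 hold the receptor motif and the third is from the receptor gene Vdr itself. That Vdr window has none of the 4. Capitals mark the motifs, on either strand. The Dhrs9 window is chr2:69380212-69380511 (plus strand), Ntn4 chr10:93640799-93641098 (plus strand) and Vdr chr15:97908247-97908546 (minus strand). By GENCODE, Vdr spans chr15:97854425-97910630 on the minus strand, so its window lies inside the gene. The sequence before the outermost start of Vdr was not searched. Ntn4 spans chr10:93640681-93747207, so its window begins inside the gene too.
Dhrs9: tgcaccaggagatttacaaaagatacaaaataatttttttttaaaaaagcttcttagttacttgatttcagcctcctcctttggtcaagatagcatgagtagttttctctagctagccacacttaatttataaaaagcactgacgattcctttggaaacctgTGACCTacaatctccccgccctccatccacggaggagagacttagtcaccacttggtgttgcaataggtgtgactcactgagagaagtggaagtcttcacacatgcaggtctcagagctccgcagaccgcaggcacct
Ntn4: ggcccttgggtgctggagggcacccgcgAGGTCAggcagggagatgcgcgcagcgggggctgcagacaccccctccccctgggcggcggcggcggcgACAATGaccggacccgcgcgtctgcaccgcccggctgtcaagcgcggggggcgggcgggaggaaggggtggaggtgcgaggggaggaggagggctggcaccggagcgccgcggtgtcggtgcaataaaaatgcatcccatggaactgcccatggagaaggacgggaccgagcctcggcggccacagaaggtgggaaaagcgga
Vdr: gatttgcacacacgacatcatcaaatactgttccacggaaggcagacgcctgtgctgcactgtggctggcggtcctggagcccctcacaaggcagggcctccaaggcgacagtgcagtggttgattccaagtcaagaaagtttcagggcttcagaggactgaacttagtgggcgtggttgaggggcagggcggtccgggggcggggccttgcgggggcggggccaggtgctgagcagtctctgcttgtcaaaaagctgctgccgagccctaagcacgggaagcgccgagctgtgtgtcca

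ORS cells differed among themselves by Lgr5. It had a UMI in 359 of 621 cells and 362 of 550 cells, and these were compared with the 262 and 188 cells without. Of 11460 genes, 193 (1.68%) were higher and 339 (2.96%) lower in cells with Lgr5, together 4.64%, and with the replicate block 371 and 604. With cells thinned to 3000 UMIs before the split the counts were 39 and 153, and without the cells that entered by Barx2 alone 24 and 81. Cells with Lgr5 had medians of 7543 and 10014.5 UMIs and those without 6743.5 and 8720.

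Of 11 Hedgehog genes, 2 were higher in cells with Lgr5. Gli2, a Hedgehog effector, was at 132 and 158 against 41.6 and 45.1 CPM (log2 fold change 1.78, SE 0.18, adjusted p = 0.000394), and Ptch1, a Hedgehog receptor and target, at 78.0 and 80.1 against 34.9 and 43.5 CPM (1.05, SE 0.19). Fgf5, the signal that ends anagen, was at 57.4 and 41.6 against 10.8 and 7.52 CPM (2.45, SE 0.30). Slc1a3 was at 346 and 351 against 74.0 and 69.8 CPM (2.31, SE 0.18), and Vdr at 373 and 369 against 157 and 153 CPM (1.29, SE 0.17). Fhod3 (2.81, SE 0.21), Dnah7b, a dynein gene (2.99, SE 0.38), Adamts20, a matrix protease (2.62, SE 0.27), the amino acid transporter Slc7a1 (2.62, SE 0.20) and Tagln (2.62, SE 0.23) had the largest differences. Tagln and Acta2 were the only tested genes of the 4 mural and muscle markers, at 661 and 493 against 105 and 86.5 CPM and at 532 and 307 against 145 and 88.1 CPM. Without the cells that entered by Barx2 alone, Gli2, Fgf5, Slc1a3, Vdr, Fhod3, Adamts20, Slc7a1 and Tagln were still called, and Ptch1, Dnah7b and Acta2 were not.

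Of 10 keratins, 5 were lower in cells with Lgr5, Krt79 at 39.5 and 21.2 against 562 and 539 CPM (log2 fold change -4.16, SE 0.29), Krt6a at 9.12 and 17.1 against 269 and 205 CPM (-4.12, SE 0.29), Krt77 (-4.41, SE 0.30) and Krt80 (-2.60, SE 0.25), besides Krt16, which was at 1.35 and 0.510 against 8.74 and 15.0 CPM. Of 8 suprabasal markers, 6 were lower, with Sbsn at 136 and 106 against 838 and 609 CPM (-2.55, SE 0.24). Alox12e, an epidermal lipoxygenase (-4.52, SE 0.24), Defb6, a defensin (-4.16, SE 0.42), and the retinol-esterifying Lrat (-3.54, SE 0.31) were lower too. So were Klf5, at 23.7 and 19.9 against 88.9 and 102 CPM (-2.10, SE 0.20), Foxc1 (-3.16, SE 0.29), Nfatc1 (-2.53, SE 0.36) and the AP-1 genes Atf3, Fosl1 and Fosl2. Without the cells that entered by Barx2 alone, Krt6a (-4.49), Krt77 (-3.43), Sbsn (-2.94) and Lrat (-3.51) were still called. Krt79 (-4.04, SE 0.70), Alox12e (-4.57, SE 0.90), Foxc1 (-3.27, SE 0.63), Nfatc1 (-2.58, SE 0.63) and Defb6 (-3.84, SE 0.72) were not, with log2 fold changes close to those above and larger standard errors. Klf5 (-1.51, SE 0.36), Krt80 (-1.55, SE 0.55), Atf3 (-0.60, SE 0.24) and Fosl2 (-0.85, SE 0.26) lost their calls with smaller changes, and Fosl1 (-2.65, SE 0.64) lost its call too. Sox9, at 218 and 252 against 399 and 332 CPM (-0.61, SE 0.19, adjusted p = 0.077), and Krt15, at 2084 and 1495 against 2250 and 1822 CPM (-0.15, SE 0.22, adjusted p = 0.78), did not pass the test.

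**Figure D4:**
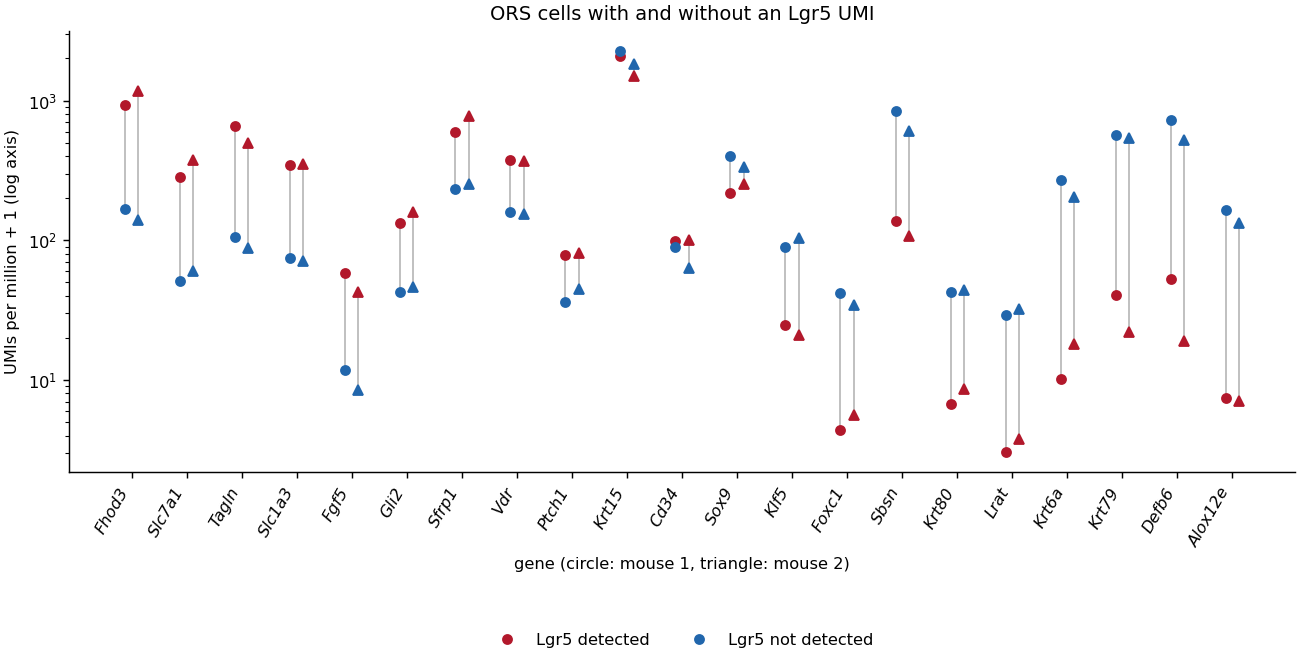
Levels in ORS cells with (red) and without (blue) an Lgr5 UMI, in CPM plus 1 on a log axis, with a circle for mouse 1 and a triangle for mouse 2 and a line joining the sums of a mouse. Fhod3, Slc7a1, Tagln and Slc1a3 are higher with Lgr5 in both mice, Krt6a, Krt79, Defb6 and Alox12e are higher without it, and Krt15 and Sox9 did not pass the test.

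At 3000 UMIs per cell, Krt79 was detected with Lgr5 in 7 of 597 and 4 of 533 ORS cells. It was found in 2.67% and 1.45% of cells with Lgr5 and in 17.6% and 19.1% of cells without. Krt6a and Lgr5 met in 0 and 3 cells. The 0 of 597 cells of mouse 1 allow a share of up to 0.503% of cells with a UMI of both at this depth, 3 counts being the limit that a count of 0 allows, which says nothing of cells that express both. Sox9 and Klf5 were detected together in 27 (4.52%) and 24 (4.50%) ORS cells, against 0.219% and 0.308% of the fibroblast gate. In other basal cells they met in 3 of 122 (2.46%) and 4 of 81 (4.94%) cells, so ORS cells were not above them in mouse 2. Klf5 was found in 9.78% and 9.09% of ORS cells with Sox9 and in 8.72% and 10.0% of those without. The share of ORS cells with Klf5, 9.21% and 9.57%, was little above that of the fibroblast gate, 6.97% and 7.54%. These shares describe cells of 2 libraries, and pairs of genes share the depth of a cell.

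Cell cycle genes split ORS cells further. Cells with 3 or more UMIs of 8 G2/M genes numbered 134 and 136 and were compared with the 227 and 154 cells with 0. Of 10236 genes, 163 (1.59%) were higher and 5 (0.0488%) lower in cycling cells, and with the replicate block 269 and 23. Nusap1, a spindle protein, was at 134 and 143 against 5.88 and 2.20 CPM (log2 fold change 4.97, SE 0.32), and the histone genes Hist1h2ap (4.35, SE 0.23) and Hist1h1b (4.10, SE 0.28) followed. Of 12 DNA replication genes, Pcna (1.39, SE 0.20), Mcm5 (2.06, SE 0.27), Mcm7 (1.69, SE 0.28) and Rrm1 (1.90, SE 0.23) were higher. The test left out the 8 G2/M genes and the genes of the rule. Other cell cycle genes vary with those 8 in the same cells, so their calls describe the split and are no separate support for it. The 5 lower genes were Krt6a, at 20.3 and 17.7 against 170 and 71.8 CPM (-2.76, SE 0.41), Defb6, Sbsn, Sorbs2 and Nckap5, and without the cells that entered by Barx2 alone 0 genes were lower at this threshold. None of the 16 stem cell transcription factors was called, with Sox9 at 206 and 191 against 337 and 335 CPM (-0.83, SE 0.17, adjusted p = 0.0266) and Vdr at 250 and 224 against 292 and 327 CPM (-0.45, SE 0.17). Cycling cells were deeper, with medians of 9140 and 11766 UMIs against 6555 and 8609. At 3000 UMIs per cell the cycling share was 13.1% and 10.3%.

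Cd34 is a surface marker of bulge HFSCs that dermal fibroblasts also express. It had a UMI in 235 and 253 ORS cells, 19.1% and 17.6% at 3000 UMIs, while the fibroblast gate had 73.2% and 57.7%. Of 11672 genes, 9 (0.0771%) were higher in ORS cells with Cd34 and 0 lower by edgeR, against 340 lower at an unadjusted p under 0.05 and 10 lower by DESeq2, and with the replicate block 201 were higher and 51 lower. The higher genes were led by Opcml at 126 and 133 CPM in cells with Cd34 (log2 fold change 2.39, SE 0.18), Clec3b, Gpx3, Ogn and Fbn1. Of the 6 fibroblast markers, Dcn was called higher and 5 were not called, with a median log2 fold change of 1.19 against -0.00 over all genes, and Col1a1 lay at 1097 and 1502 against 507 and 853 CPM (0.94, SE 0.24, adjusted p = 0.133). Without the cells with the highest Scrublet scores, 0 were higher. Lgr5 (0.28, SE 0.19, adjusted p = 0.944) and Sox9 (-0.32, SE 0.16, adjusted p = 0.748) did not pass the test.

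The genes of the ORS were then read in the HFSC cultures, at an adjusted p under 0.05 by edgeR over 15965 genes. In wild-type cultures, 4350 genes (27.2%) had a higher and 4249 (26.6%) a lower level with atRA+PKCi. Of the 15 ORS genes, 13 were tested, and 7 were higher and 5 lower, with a median log2 fold change of 1.05 against 0.03 over all genes, so the share called was above that of all genes while the direction was divided. In Rxra cKO cultures, where 20.8% of genes were higher and 22.2% lower, 6 of the 13 were higher and 4 lower. Fhod3 and Lgr5 were too low to be tested.

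Adgrl3 rose in wild-type cultures from 1.86 and 1.27 to 28.1 and 28.7 CPM (log2 fold change 4.17, SE 0.15, adjusted p = 9.27e-08), Cmah from 0 and 0.270 to 12.1 and 11.3 CPM (6.43, SE 0.43) and Kalrn from 0.985 and 0.656 to 6.89 and 6.68 CPM (3.04, SE 0.28). Dhrs9 fell from 20.7 and 22.4 to 0.0641 and 0.0950 CPM (-8.00, SE 0.18), and in Rxra cKO cultures from 69.5 and 76.5 to 1.49 and 1.45 CPM (-5.63, SE 0.11). Flrt3 fell from 551 and 514 to 137 and 139 CPM (-1.95, SE 0.08). Vdr, at 73.6 and 66.8 against 60.1 and 58.5 CPM, was lower in wild-type cultures (log2 fold change -0.24, SE 0.07, adjusted p = 0.0147) and lost that call without replicate 1 of FBS or replicate 2 of atRA+PKCi. Among the marker genes, Krt15 rose from 3.65 and 4.75 to 4574 and 4428 CPM in wild-type cultures (10.07, SE 0.17) and from 6.51 and 8.22 to 251 and 245 CPM in Rxra cKO cultures (5.07, SE 0.14). The rise was larger in wild-type cultures by 5.00 on the log2 scale (interaction, SE 0.19, adjusted p = 2.01e-06). Barx2 rose from 37.5 and 36.3 to 103 and 92.4 CPM (1.41, SE 0.08) and from 12.4 and 13.7 to 41.8 and 39.5 CPM (1.64, SE 0.09). Tbx1 did not pass the test in either genotype (-0.24, SE 0.21, and 0.30, SE 0.21). In skin, Krt15 was called higher in ORS cells than in Krt75 cells and was not called against other basal cells.

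**Figure D5:**
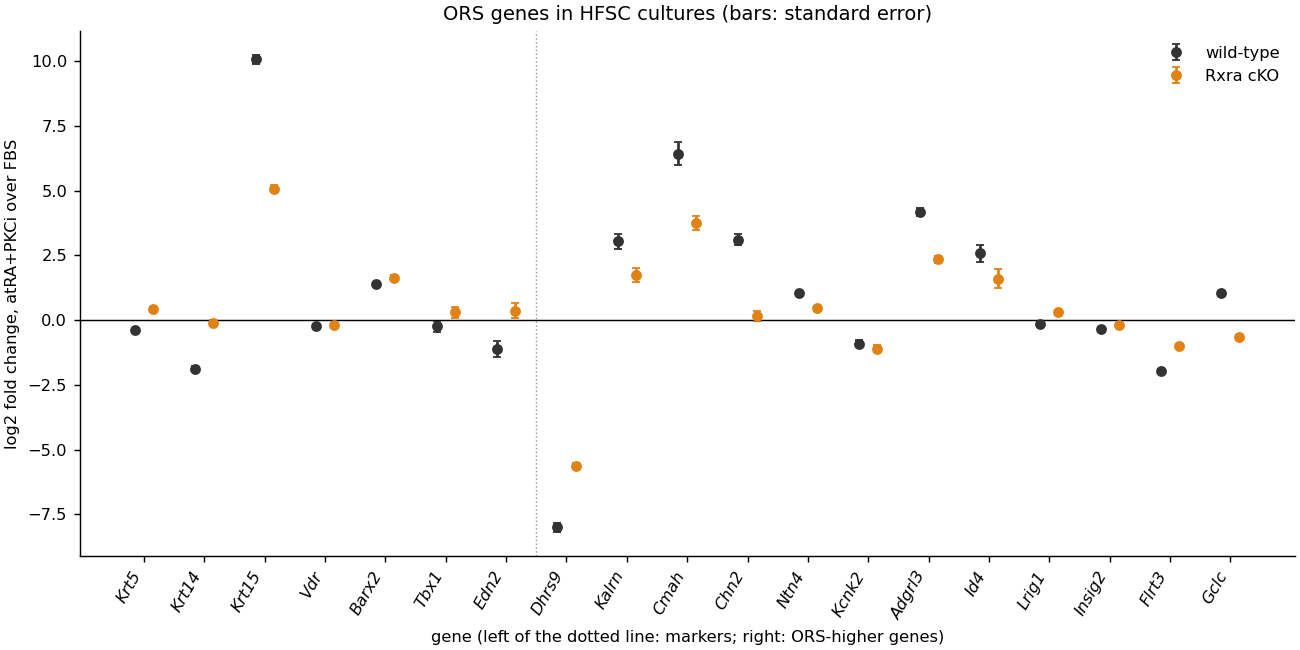
Log2 fold change of atRA+PKCi over FBS in wild-type (black) and Rxra cKO (orange) HFSC cultures, with bars for the standard error, for markers (left of the dotted line) and the ORS genes tested (right). Krt15 and Cmah rise most and Dhrs9 falls most, in both genotypes, and the rise of Krt15 is larger in wild-type cultures.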

How the data were processed

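Single cell libraries of 2 wild-type AnaVI mice were aligned by the authors with Cell Ranger (7.0.1 in the submitters' processing notes) to mm10, and the deposited matrices hold raw UMI counts. Ambient RNA and doublets had not been removed from these values. The deposited culture table holds estimated counts that the authors made with salmon (1.4.0) and tximport, and they were rounded to whole numbers here. Cells were gated by UMIs as stated in the report, and the UMIs of each population were summed per mouse. Sums and culture libraries (25150000 to 35880000 counts) were tested with edgeR (4.0.16, R 4.3.3) by the quasi-likelihood test after TMM scaling and edgeR's filter on low counts, with Benjamini-Hochberg adjustment. The fit of the 3 gated populations and that of the neighbors (other basal cells and the Shisa2 set) each shared an estimate of spread, and the neighbors were added after the gates had been seen to hold few cells. DESeq2 (1.42.0) was an alternative. The scripts used scanpy (1.11.5), scipy (1.17.1) and matplotlib (3.10.9) under Python (3.11.15), and the tests were tried on simulated data.

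The members and gene lists were chosen with earlier results of these data known. Genes named outside the lists were, per comparison, those called with the 5 highest and the 5 lowest log2 fold changes, given 50 or more CPM in the higher group and no overlap between mice, and the 15 genes higher in ORS cells than in 3 gated populations by the same limits. The gated populations of a mouse come from 1 library and are paired, and deviations from the group means correlated between ORS cells and the other populations of the same mouse at 0.0506 to 0.344 over 14005 or 14167 genes. Cultures of the same number correlated at 0.147 (wild-type) and 0.00977 (Rxra cKO) over 13021 genes. The alternatives are given in the closing section. Gene positions are from GENCODE M21 (GRCm38). Some results are not reported here.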

Additional observations from a re-analysis of the deposited data

Results flagged for a closer look

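The change from FBS to atRA+PKCi was compared between wild-type and Rxra cKO cultures for the genes of the rule, the markers and the 15 ORS genes. The rule genes include those that kept cells out, such as Krt1 and Krt10. The change differed for 15 of the 23 genes tested, by the genotype by medium interaction of edgeR's quasi-likelihood test at an adjusted p under 0.05. Over all genes, 11.3% had a higher and 13.3% a lower change in wild-type cultures. Of the 13 ORS genes tested, 6 had a higher and 3 a lower change. The change was higher in wild-type cultures, on the log2 scale, for Krt15 (5.00), Chn2 (2.94), Cmah (2.69), Adgrl3 (1.83), Gclc (1.71), Kalrn (1.29) and Ntn4 (0.59). It was lower for Krt1 (-8.61), Krt10 (-6.11), Dhrs9 (-2.38), Krt14 (-1.78), Edn2 (-1.48), Flrt3 (-0.96), Krt5 (-0.84) and Lrig1 (-0.47). Krt1 and Krt10, keratins of epidermal differentiation, fell in wild-type cultures (-4.91 and -4.47) and rose in Rxra cKO cultures (3.70 and 1.64). Gclc rose in wild-type (1.05) and fell in Rxra cKO cultures (-0.65). The calls for Edn2, Kalrn, Cmah and Lrig1 were lost without some of the libraries in turn, and that for Edn2 also with the replicate block.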

How the results depend on the processing

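Each comparison has 2 mice, the upper follicle and suprabasal gates held few cells, and depth limits genes near 1 UMI per cell. Populations defined by UMIs of a few genes shift with depth. The causes of the changes below were not tested, and the counts do not say which genes.

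With the replicate block, counts higher/lower in ORS cells were 114 and 119 (upper follicle), 395 lower (other basal), and 30 and 32 (Shisa2 set). In the splits they were 269 and 23 (cycling), 371 and 604 (Lgr5), and 201 and 51 (Cd34). The block changed the calls of 2 named genes, Krt79 against the Shisa2 set and the Edn2 interaction.

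At an adjusted p under 0.05 with no limit on fold change, counts higher and lower were 107 and 100 (upper follicle), 1531 and 1154 (Krt75), 774 higher (suprabasal), 595 and 560 (other basal), 30 and 32 (Shisa2 set), 287 and 25 (cycling), 433 and 652 (Lgr5), and 104 and 17 (Cd34). In cultures at an adjusted p below 0.01 and a log2 fold change above 1 in size they were 1381 and 1579 (wild-type), 817 and 1041 (Rxra cKO), and 440 and 694 (interaction).

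With no filter on low counts they were 0 and 0 (upper follicle), 238 and 329 (suprabasal), 509 and 465 (other basal), 63 and 63 (Shisa2 set), 348 and 41 (cycling), 353 and 558 (Lgr5), and 204 and 50 (Cd34). DESeq2 gave 25 and 148 (upper follicle), 19 and 24 (Shisa2 set), and 60 and 10 (Cd34). With only the 4 sums compared, 67 and 116 (upper follicle) and 20 higher (Shisa2 set) were called. Thinning to 3000 UMIs gave 16 lower (upper follicle), 221 and 266 (suprabasal), 10 lower (cycling), 39 and 153 (Lgr5), and 5 and 2 (Cd34).

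Without Scrublet doublets the counts were 14 and 23 (upper follicle), 147 lower (other basal), 2 lower (Shisa2 set), 2 lower (cycling) and 0 higher (Cd34). Without the highest Scrublet scores they were 25 and 19 (upper follicle), 21 lower (Shisa2 set) and 0 higher (Cd34). Without cells that entered by Barx2 alone they were 73 and 74 (upper follicle), 437 lower (other basal), 0 higher (Shisa2 set), 0 lower (cycling), and 24 and 81 (Lgr5). Upper follicle calls lower in ORS cells were 24 with 1000 genes and 5% mitochondrial UMIs as limits, and 74 without the ORS cells with most collagen UMIs.

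Leaving out each replicate in turn gave 1 to 69 higher and 9 to 75 lower (upper follicle), 527 to 1123 and 228 to 533 (Krt75), 143 to 477 and 260 to 516 (suprabasal), 80 to 298 and 74 to 228 (other basal), 2 to 17 and 1 to 13 (Shisa2 set), 268 to 287 and 32 to 49 (cycling), 247 to 307 and 394 to 522 (Lgr5), and 10 to 160 and 10 to 54 (Cd34). In cultures the ranges were 3443 to 4215 and 3654 to 4316 (wild-type), 2133 to 3724 and 2326 to 3890 (Rxra cKO), and 961 to 1878 and 1375 to 2483 (interaction). In the splits by cycling, Lgr5 and Cd34, every such count lay above the count with all sums, so those ranges do not bracket the result. The lowest counts against upper follicle, suprabasal and other basal cells came without replicate 2 of that population, and those against Krt75 cells without replicate 2 of ORS cells. Against the Shisa2 set they came without replicate 2 of that set (higher) or of ORS cells (lower), and for Cd34 without replicate 1 of cells lacking it. In cultures they came without an atRA+PKCi library, replicate 2 for wild-type cultures and either replicate for Rxra cKO cultures and the interaction.

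Direction turned for 5 genes. Without cells that entered by Barx2 alone, Krt79 against other basal cells went to -2.48, Defb6 in cycling cells to 0.22, Krt15 in the Lgr5 split to 0.53 and Lgr5 against the Shisa2 set to 0.38. Lgr5 there was 0.0206 with no filter and -0.19 to 0.16 with replicates left out, and Krt15 in the Lgr5 split -0.433 to 0.0749. Corin against upper follicle cells was 7.23 without the highest Scrublet scores. Of the alternatives for 329 named values, 4375 kept direction and call, 431 lost the call, 18 gained it and 12 turned.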

Other observations

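Within ORS cells at 3000 UMIs per cell, Sox9 was detected in 36.9% and 45.7% of cells with Vdr and in 55.3% and 53.1% of cells without. Lgr5 was detected in 50.7% and 57.4% of cells with Krt15 and in 26.3% and 37.2% of cells without. Mki67, a proliferation marker, was found in 16.4% and 13.0% of cells with Lgr5 and in 12.8% and 14.8% of cells without, so the order differed between the mice. Krt79 and Krt6a, both higher in cells without Lgr5, were detected together in 5 of 597 and 0 of 533 cells. These are descriptions of cells of 2 libraries.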
